A study of Callithrix jacchus with 20 samples.

Results

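The 10 genes AXIN2, LEF1, TCF7, SP5, SP8, NKD1, NOTUM, LGR5, RNF43 and ZNRF3 are known as direct targets of WNT signalling, and most of their products act back on the pathway. They were taken by symbol from a table of 25102 marmoset genes, and their expression was followed through all 10 conditions of the study. All 10 were found in the table, and all 10 were among the 15797 genes left after a filter on low counts. In canonical WNT signalling, a complex of AXIN proteins, APC and the kinase GSK3 marks beta-catenin for degradation, and a WNT signal or a GSK3 inhibitor such as CHIR stops this. Beta-catenin then enters the nucleus and binds the transcription factors of the TCF/LEF family, to which LEF1 and TCF7 belong. SP5 and SP8 are zinc finger transcription factors that are induced by WNT and act on WNT target genes. AXIN2 is a scaffold of the complex that degrades beta-catenin, and NKD1 binds Dishevelled. NOTUM is a secreted enzyme that removes the lipid from WNT proteins, and RNF43 and ZNRF3 are membrane ubiquitin ligases that clear Frizzled receptors from the cell surface. LGR5 is a receptor for R-spondins, which block RNF43 and ZNRF3. WNT signalling is known to prepare pluripotent cells for the mesendoderm and the germ cell fate.

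The samples were 20 poly(A) RNA-seq libraries of the common marmoset line DPZ_cjiPSC#2, with 10 conditions and 2 biological replicates in each. This is 1 line of induced pluripotent stem cells (cjiPSCs), made from foetal fibroblasts. CjiPSCs were kept in the commercial TESR medium or in cjPSCM, and from each medium precursors of mesendoderm (pre-ME) were induced with or without Activin A (ActA). For induction the cells were dissociated and plated for 24 h in another basal medium with 3 μM CHIR and a ROCK inhibitor, and with 100 ng/ml ActA where it was given. CjPSCM itself holds 1 μM CHIR together with IWR-1, an inhibitor of tankyrase that is known to stabilise AXIN proteins, whereas neither is listed for TESR medium. Every pre-ME culture received CHIR. The effects of CHIR, the change of medium, the replating and the ROCK inhibitor therefore cannot be told apart, and the change from cjiPSCs to pre-ME is called the CHIR response here only for short. Pre-ME libraries of TESR cultures are also numbered apart from all others in the series, and the paper does not state whether they were prepared apart. If they were, its effect cannot be told apart in any comparison of these libraries with others. Pre-ME of the cjPSCM cultures, with or without ActA, were induced further as embryoid bodies with 500 ng/ml BMP4 and other cytokines but with no CHIR listed. On day 4 these were sorted into cjPGCLCs, positive for the surface markers, and somatic cells (soma), negative for them. The paper names integrin α6 and CXCR4 as the markers, while the labels also name EpCAM.

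Between 4784964 and 22067099 reads were counted on genes per library, and 10.6% to 23.2% of the counted reads lay outside genes. This share was 10.6% and 13.3% in cjiPSCs in TESR medium and 19.3% to 20.6% in their pre-ME. In cjiPSCs in cjPSCM it was 12.2% and 19.3%. Levels are the authors' counts normalised by size factors, which are not corrected for gene length, so they are compared between conditions of a gene and not between genes. On this scale 3 reads stand for 1.40 to 6.92 normalised counts, depending on the library, and this floor covers counting error only. The cjiPSC replicates differed more than those of the other conditions. The log2 difference between both replicates had an SD over genes of 0.959 in cjPSCM and 0.619 in TESR medium, against 0.311 to 0.566 elsewhere. The markers of pluripotency POU5F1 and SOX2 were expressed in every condition. Of the pre-ME markers, TBXT had at most 43.6 normalised counts in any condition mean and 0.790 in pre-ME of cjPSCM cultures without ActA. The summed level of 6 pre-ME markers was 349 to 559.9 in cjiPSCs in TESR medium, 173 to 209.6 in their pre-ME without ActA and 406 to 817 with ActA, mostly from EOMES. In cjPSCM it was 23.7 to 38.6 in cjiPSCs, 24.8 to 34.8 in pre-ME without ActA and 68.8 to 88.4 with ActA. As these are bulk samples, fewer cells that express a gene and less RNA per cell cannot be told apart.

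**Figure D1:**
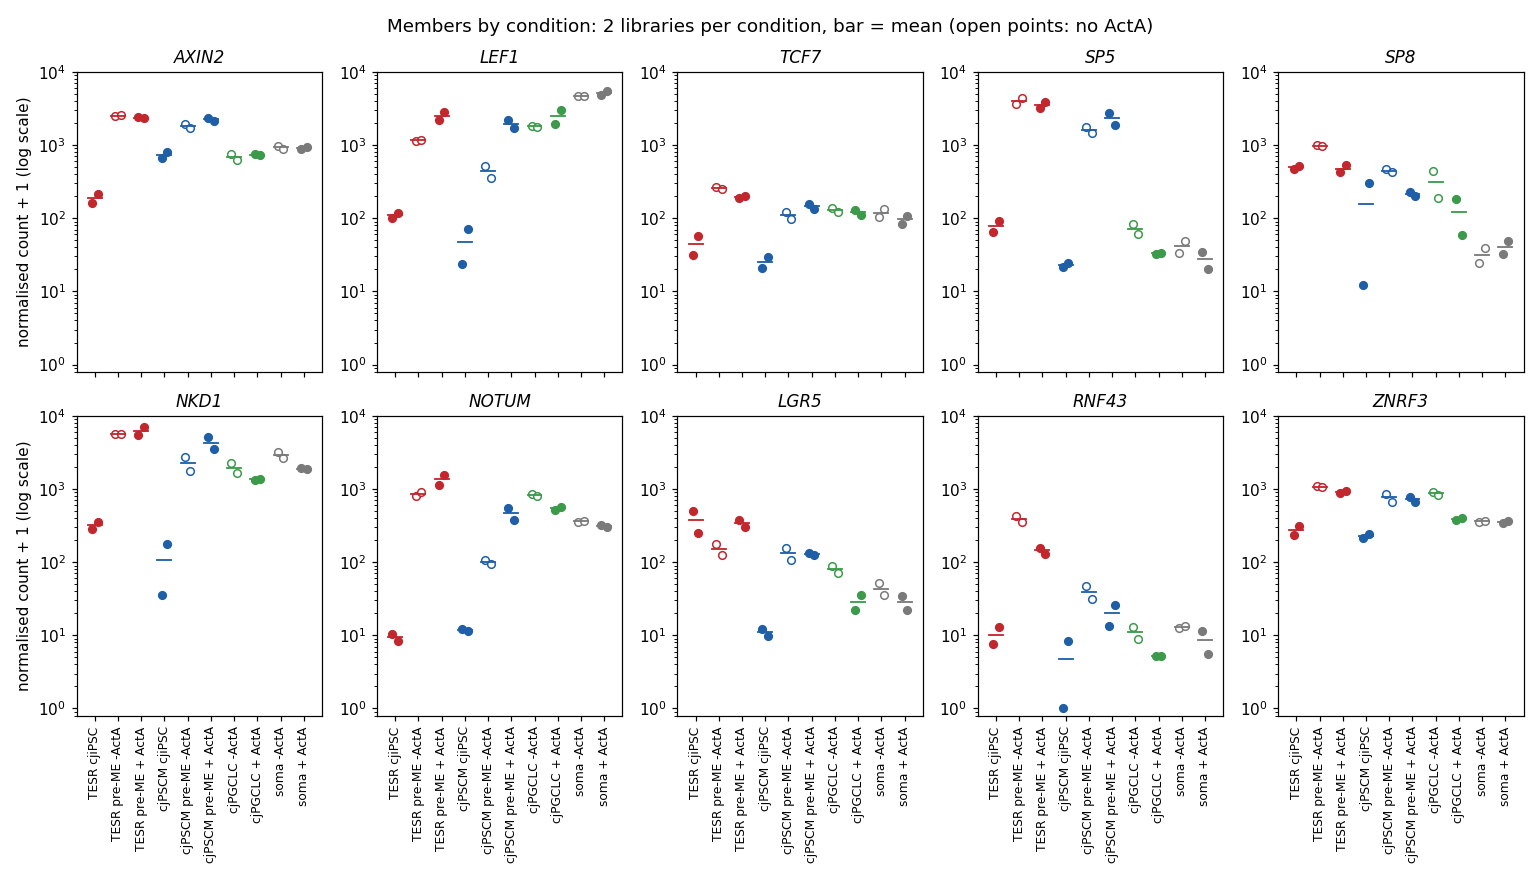
Normalised counts + 1 on a log axis for each of the 10 genes in each of the 10 conditions. Points are the 2 libraries of a condition (open without ActA, filled with ActA or in cjiPSCs), short bars are their mean, and colours mark TESR medium (red), cjPSCM (blue), cjPGCLCs (green) and soma (grey). AXIN2 lies at 159.8 and 214 in cjiPSCs in TESR medium and at 672 and 808 in cjPSCM, LGR5 is at 11.3 and 8.89 in cjiPSCs in cjPSCM, and SP5 lies at 1444 or more in the 8 pre-ME libraries.

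The first question was how the 10 genes changed from cjiPSCs to pre-ME in each medium. Without ActA, 8 of the 10 rose and 1 fell in TESR medium, and 9 rose and none fell in cjPSCM, as tested with edgeR at an adjusted p under 0.05. With ActA, 8 rose in TESR medium and 9 in cjPSCM, and none fell in either. The background was wide, since 17.4% of all genes tested were higher and 19.2% lower without ActA in TESR medium, and 17.9% higher and 20.1% lower in cjPSCM. With ActA it was 17.3% higher and 17.1% lower in TESR medium, and 7.42% higher and 10.3% lower in cjPSCM. The median log2 fold change of the 10 genes was 3.62 in TESR medium and 3.28 in cjPSCM without ActA, beside -0.03 and 0.03 for all genes, and 3.90 and 3.15 with ActA, beside -0.02 and -0.00039 for all genes. The responses with and without ActA share the cjiPSC libraries of a medium, so they are not independent of each other.

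Among the transcription factors, SP5 rose most. It had 64.5 and 89.3 normalised counts in cjiPSCs in TESR medium, 3672 and 4380.1 in their pre-ME without ActA and 3195 and 3828 with ActA. In cjPSCM the values were 20.7 and 23.7 in cjiPSCs, 1763 and 1444 in pre-ME without ActA and 2743 and 1871 with ActA. No pre-ME library of either medium overlapped a cjiPSC library. The log2 fold change without ActA was 5.77 (SE 0.25, adjusted p = 2.28e-10) in TESR medium and 6.22 (SE 0.28, adjusted p = 1.64e-09) in cjPSCM. LEF1 was read at 100.3 and 118 normalised counts in cjiPSCs in TESR medium and at 1149.9 and 1185 in pre-ME without ActA, a log2 fold change of 3.45 (SE 0.30, adjusted p = 5.24e-07). In cjPSCM it went from 22.6 and 71.2 to 513 and 356, a log2 fold change of 3.36 (SE 0.34, adjusted p = 3.19e-06). The groups of LEF1 were separate in both media. With ActA its log2 fold change was 4.55 (SE 0.31, adjusted p = 3.37e-08) in TESR medium and 5.51 (SE 0.35, adjusted p = 7.27e-08) in cjPSCM. TCF7 rose as well, by 2.66 (SE 0.25) in TESR medium and 2.25 (SE 0.29) in cjPSCM on the log2 scale without ActA, and its highest level was 264 and 251 normalised counts in pre-ME of TESR cultures without ActA.

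SP8 did not follow the other transcription factors. It had 476 and 519.7 normalised counts in cjiPSCs in TESR medium, 997 and 966 in pre-ME without ActA and 421 and 525 with ActA. The log2 fold change was 0.99 (SE 0.64, adjusted p = 0.238) without ActA and -0.06 (SE 0.64, adjusted p = 0.958) with ActA, and neither passed the test. In cjPSCM the cjiPSC replicates were 11.3 and 301, 26.6 times apart, and pre-ME had 462 and 426 without ActA. The log2 fold change there was 1.65 (SE 0.70, adjusted p = 0.0743), and without cjPSCM cjiPSC replicate 2 it was 5.30 and passed the test. With the test used here SP8 thus passed in none of the 4 CHIR responses. It did pass without the filter on low counts in both media without ActA, with edgeR fitted to the compared libraries alone in TESR medium without ActA, with a crossed replicate block in cjPSCM without ActA and without cjPSCM cjiPSC replicate 2 in cjPSCM with ActA.

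**Figure D2:**
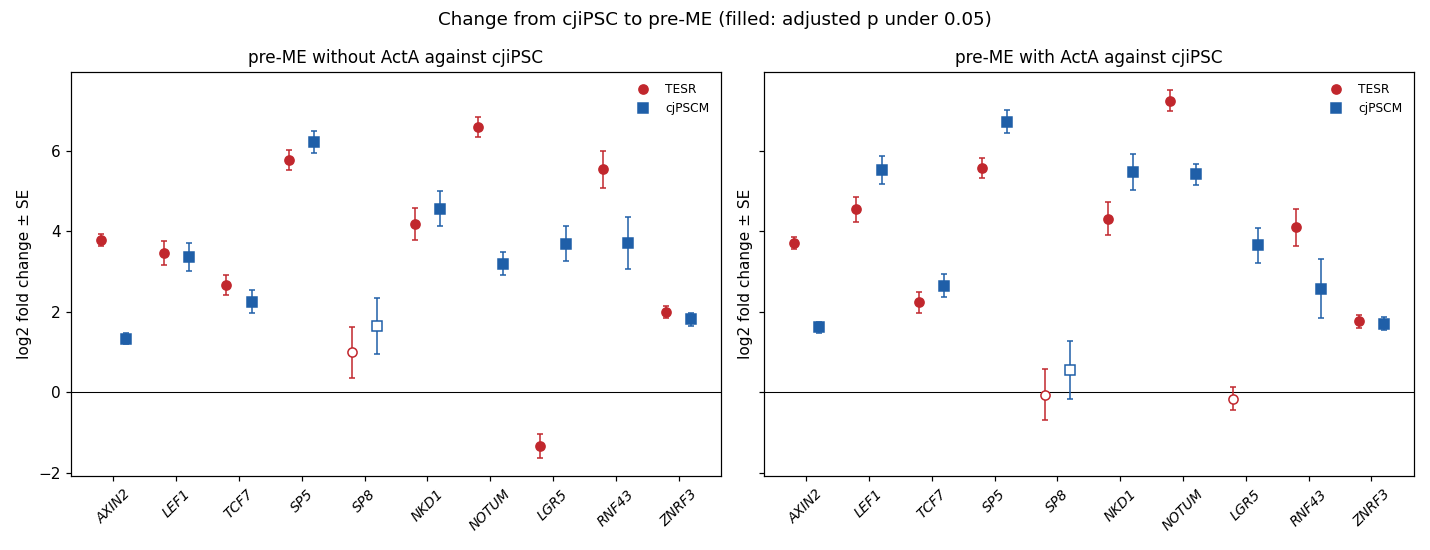
Log2 fold change from cjiPSC to pre-ME with its SE for the 10 genes, without ActA (left) and with ActA (right), for TESR medium (red circles) and cjPSCM (blue squares). Filled symbols passed the test at an adjusted p under 0.05. AXIN2 and NOTUM lie higher for TESR medium and LGR5 higher for cjPSCM in both panels, and the other 7 genes have no difference between the media that passed the test.

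Of the genes whose products dampen the pathway, NKD1, NOTUM, RNF43, ZNRF3 and AXIN2 rose in all 4 CHIR responses. NKD1 had 279 and 356 normalised counts in cjiPSCs in TESR medium and 5665 and 5627 in pre-ME without ActA, and its log2 fold change was 4.18 (SE 0.41, adjusted p = 1.42e-06). In cjPSCM the cjiPSC replicates of NKD1 were 34.9 and 175 and pre-ME without ActA had 2737 and 1763. Its log2 fold change there was 4.56 (SE 0.44, adjusted p = 1.9e-06). The ubiquitin ligase ZNRF3 rose by 2.00 without and 1.76 with ActA in TESR medium, and by 1.81 and 1.70 in cjPSCM on the log2 scale, with an SE of 0.16 each. RNF43 started from few reads, with 6.61 and 11.9 normalised counts in cjiPSCs in TESR medium and 0 and 7.41 in cjPSCM, where both libraries together held 5 reads. It reached 429.6 and 351 in pre-ME of TESR cultures without ActA but 46.0 and 30.7 in pre-ME of cjPSCM cultures. All pre-ME libraries lay above all cjiPSC libraries of RNF43. The log2 fold change was 5.54 (SE 0.46, adjusted p = 3.51e-07) in TESR medium and 3.71 (SE 0.64, adjusted p = 0.000361) in cjPSCM without ActA. The value in cjPSCM was 2.44 without cjPSCM cjiPSC replicate 1 and 8.52 without replicate 2, and its call was lost with edgeR fitted to the 4 compared libraries alone, with an adjusted p of 0.0978. With ActA in cjPSCM it was 2.57 (SE 0.74, adjusted p = 0.0231), and this call was lost in the same fit, without cjPSCM cjiPSC replicate 1 or without cjPSCM pre-ME with ActA replicate 2, with a range of 1.27 to 7.36 over the alternatives.

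Whether the CHIR response differed between the media was tested for each gene as an interaction, the response in TESR medium minus that in cjPSCM. It passed for AXIN2, NOTUM and LGR5, both without and with ActA, and for none of the other 7 genes with all libraries in the test used here. Among all genes, the response differed in one direction or the other in 6.54% without ActA and in 6.20% with ActA.

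AXIN2 had 159.8 and 214 normalised counts in cjiPSCs in TESR medium and 672 and 808 in cjPSCM. In pre-ME without ActA it had 2480.3 and 2554 in TESR and 1931 and 1697 in cjPSCM cultures. With ActA the levels were 2383 and 2366 and 2316 and 2149 in the same order. The media were thus apart before induction and close together after it. AXIN2 rose by 3.79 (SE 0.15, adjusted p = 1.28e-10) in TESR medium and by 1.33 (SE 0.14, adjusted p = 3.68e-06) in cjPSCM on the log2 scale without ActA. The difference between these responses was 2.45 (SE 0.20, adjusted p = 5.69e-06), and 2.09 (SE 0.20, adjusted p = 2.81e-05) with ActA. Both calls held under all 14 alternatives of test, normalisation, filter, pairing and left-out library, with a range of 2.25 to 2.63 without ActA.

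NOTUM was low in cjiPSCs, at 9.36 and 7.45 normalised counts in TESR medium and 11.3 and 10.4 in cjPSCM. In pre-ME without ActA it reached 795 and 918 in TESR cultures and 105 and 92.1 in cjPSCM cultures. With ActA it was 1151 and 1544 and 549 and 379 in the same order. Between the cjiPSCs of both media its log2 difference was 0.29 (SE 0.41, adjusted p = 0.659), whereas for each ActA condition the pre-ME libraries of TESR cultures all lay above those of cjPSCM cultures. The log2 fold change without ActA was 6.59 (SE 0.26, adjusted p = 1.28e-10) in TESR medium and 3.20 (SE 0.29, adjusted p = 9.88e-07) in cjPSCM. The difference was 3.40 (SE 0.48, adjusted p = 0.000615) without ActA and 1.83 (SE 0.46, adjusted p = 0.0256) with ActA. The second of these calls was lost in 5 of 14 alternatives, among them those without TESR cjiPSC replicate 2, without either cjPSCM cjiPSC replicate and without TESR pre-ME with ActA replicate 2, with adjusted p-values up to 0.163.

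LGR5 went in opposite directions. In TESR medium it had 496 and 252 normalised counts in cjiPSCs and 176 and 124 in pre-ME without ActA, and it fell by 1.34 on the log2 scale (SE 0.29, adjusted p = 0.00211). In cjPSCM it had 11.3 and 8.89 in cjiPSCs and 154 and 107 in pre-ME without ActA, and it rose by 3.69 (SE 0.43, adjusted p = 1.14e-05). Pre-ME of both media thus overlapped in level, while the cjiPSCs did not. The fall in TESR medium was lost without TESR cjiPSC replicate 1, the higher of the pair, when the log2 fold change was -0.72 with an adjusted p of 0.071. The difference between the responses was -5.03 (SE 0.53, adjusted p = 3.75e-05) without ActA and -3.81 (SE 0.53, adjusted p = 0.00046) with ActA, and both calls held under all 14 alternatives. With ActA, LGR5 was 374 and 303 in pre-ME of TESR cultures, which overlapped the cjiPSCs (log2 fold change -0.16 (SE 0.29, adjusted p = 0.703)), and 134 and 125 in pre-ME of cjPSCM cultures. The summed level of the 6 pre-ME markers given above, mostly from EOMES in TESR medium, was also lower in pre-ME of TESR cultures without ActA and in cjiPSCs in cjPSCM than in cjiPSCs in TESR medium. Its other members differed in direction. TBXT, MIXL1, MESP1 and TBX6 had higher means in pre-ME of TESR cultures without ActA than in the cjiPSCs, at no more than 11.4 normalised counts, and MIXL1, MESP1 and TBX6 had 8.15, 14.1 and 5.86 in cjiPSCs in cjPSCM against 2.95, 5.35 and 2.87 in TESR medium. Their part in the level of LGR5 was not tested.

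For the other 7 genes the interval of the difference shows what the data leave possible. For ZNRF3 the response in TESR medium minus that in cjPSCM was 0.19 without ActA (95% confidence interval -0.27 to 0.65), and for LEF1 it was 0.09 (95% confidence interval -0.90 to 1.07). The intervals of TCF7, SP5 and NKD1 were -0.41 to 1.24, -1.25 to 0.35 and -1.55 to 0.78 without ActA. With ActA the difference of SP5 was -1.15 (SE 0.38, adjusted p = 0.084) and did not pass. The widest intervals belonged to SP8, -2.64 to 1.34, and RNF43, -0.41 to 4.07, so for these 2 genes a difference of several fold could not be told from none. Several of these differences depended on the cjiPSC libraries in cjPSCM. Without ActA, RNF43 had a difference of -2.97 without cjPSCM cjiPSC replicate 2, which did not pass, and one of 3.12 without replicate 1, which passed with an adjusted p of 0.0296. Without cjPSCM cjiPSC replicate 2, SP8 and NKD1 passed both without and with ActA, with -4.30 and -1.84 without ActA, and LEF1 passed with ActA. SP5 passed with ActA in 4 of 14 alternatives, among them those without TESR cjiPSC replicate 1 and without cjPSCM pre-ME with ActA replicate 2.

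The media were also compared directly, first in cjiPSCs. AXIN2 was higher in cjPSCM, with 739.7 ± 96.4 against 187 ± 38.7 (normalised counts, mean ± SD, n = 2 each), and differed by 1.98 (SE 0.15, adjusted p = 4.24e-08) on the log2 scale. In the opposite direction, 5 of the 10 genes were lower in cjPSCM, namely LEF1, TCF7, SP5, NKD1 and LGR5. Among all genes, 18.1% were higher and 18.1% lower. LGR5 had the largest difference, -5.21 (SE 0.42, adjusted p = 9.85e-08), and its level was 37.0 times as high in TESR medium by the means. SP5 was lower in cjPSCM by 1.77 on the log2 scale (SE 0.32, adjusted p = 0.000368), with 22.2 ± 2.12 against 76.9 ± 17.6 normalised counts. NKD1 differed by -1.71 (SE 0.43, adjusted p = 0.00503) and LEF1 by -1.33 (SE 0.37, adjusted p = 0.00924). TCF7 had -0.83 (SE 0.31, adjusted p = 0.0481) and passed in 3 of 10 alternatives. The call of LEF1 was lost without cjPSCM cjiPSC replicate 1, and the difference of NKD1 lay between -3.16 and -0.88 with 1 library left out. NOTUM, RNF43, ZNRF3 and SP8 did not pass with all libraries, but RNF43 and SP8 did without cjPSCM cjiPSC replicate 2, with -6.27 and -5.44, and ZNRF3 did without TESR cjiPSC replicate 1. With all libraries, the difference of ZNRF3 was -0.29 (95% confidence interval -0.63 to 0.06).

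In pre-ME without ActA, 8 of the 10 genes were lower in cultures that came from cjPSCM and none were higher, beside 5.96% lower and 8.08% higher among all genes. SP8 and LGR5 were the 2 that did not pass. RNF43 and NOTUM differed most. RNF43 was lower by 3.32 (SE 0.37, adjusted p = 1.03e-05) and NOTUM by 3.11 (SE 0.19, adjusted p = 2.82e-08) on the log2 scale, 10.2 and 8.69 times by the means. AXIN2 and ZNRF3 differed little, by -0.47 (SE 0.13, adjusted p = 0.0231) and -0.48 (SE 0.15, adjusted p = 0.0382), and the calls of AXIN2, ZNRF3 and NKD1 were lost without cjPSCM pre-ME without ActA replicate 2 or without either replicate of the TESR cultures. With ActA, 4 of the 10 were lower in cjPSCM cultures, SP5, NOTUM, LGR5 and RNF43, beside 14.2% of all genes, and none were higher, beside 13.2%. The call of SP5 was lost without replicate 2 of either medium. LGR5 then differed by -1.40 (SE 0.30, adjusted p = 0.00314) and RNF43 by -3.01 (SE 0.42, adjusted p = 8.59e-05). Whether the difference between media changed with ActA is the test of the ActA effect by medium, given with the ActA effect.

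**Figure D3:**
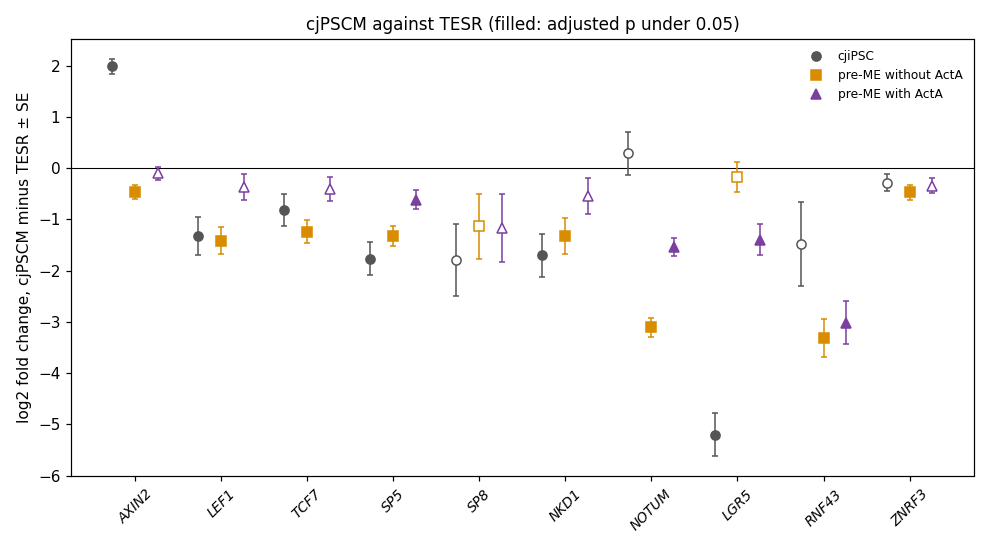
Log2 fold change of cjPSCM against TESR cultures with its SE for the 10 genes, in cjiPSCs (grey circles), pre-ME without ActA (orange squares) and pre-ME with ActA (purple triangles). Filled symbols passed the test at an adjusted p under 0.05. AXIN2 lies at 1.98 in cjiPSCs and below 0 in pre-ME, LGR5 lies at -5.21 in cjiPSCs, and RNF43 is at -3.32 and -3.01 in pre-ME.

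The next comparison asked what ActA, a TGFβ family ligand that signals through SMAD proteins, added to CHIR. In pre-ME of TESR cultures, LEF1, NOTUM and LGR5 were higher with ActA and RNF43 was lower, beside 5.63% higher and 3.20% lower among all genes. In pre-ME of cjPSCM cultures, LEF1 and NOTUM were higher and none of the 10 were lower, beside 11.4% and 9.54%. LEF1 had 1149.9 and 1185 normalised counts without and 2204 and 2800.2 with ActA in TESR cultures, and 513 and 356 and 2202 and 1718 in cjPSCM cultures. Libraries with and without ActA did not overlap for LEF1 in either medium. Its log2 fold change was 1.10 (SE 0.26, adjusted p = 0.0106) in TESR and 2.15 (SE 0.27, adjusted p = 6.5e-05) in cjPSCM cultures. NOTUM changed by 0.65 (SE 0.16, adjusted p = 0.0169) and 2.22 (SE 0.19, adjusted p = 1.05e-06). LGR5 rose by 1.18 (SE 0.29, adjusted p = 0.0156) in TESR cultures, and its change in cjPSCM cultures was -0.04 (SE 0.31, adjusted p = 0.941). RNF43 fell by 1.44 on the log2 scale (SE 0.33, adjusted p = 0.0103) in TESR cultures, from 429.6 and 351 to 158 and 130.0 normalised counts, and its change in cjPSCM cultures was -1.14 (SE 0.45, adjusted p = 0.0815).

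The effect of ActA was tested for a difference between the media as well, and among the 10 genes NOTUM passed alone, with -1.57 (SE 0.24, adjusted p = 0.012) as the effect in TESR minus that in cjPSCM cultures. Among all genes 0.241% had a higher and 0.158% a lower effect in TESR cultures. For LGR5 the difference was 1.22 (SE 0.42, adjusted p = 0.178) and for LEF1 -1.05 (SE 0.36, adjusted p = 0.177), so neither passed. These results depended on single libraries. In TESR cultures LEF1, NOTUM and LGR5 each lost their call without some of the 4 libraries. RNF43 lost its call without any 1 of the 4 libraries, with a log2 fold change that stayed between -1.58 and -1.28. The difference of NOTUM was lost without TESR pre-ME without ActA replicate 2, TESR pre-ME with ActA replicate 1, cjPSCM pre-ME without ActA replicate 2 or cjPSCM pre-ME with ActA replicate 1, and its size stayed between -1.80 and -1.26. The calls of LEF1 and NOTUM in cjPSCM cultures held under all 10 alternatives.

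**Figure D4:**
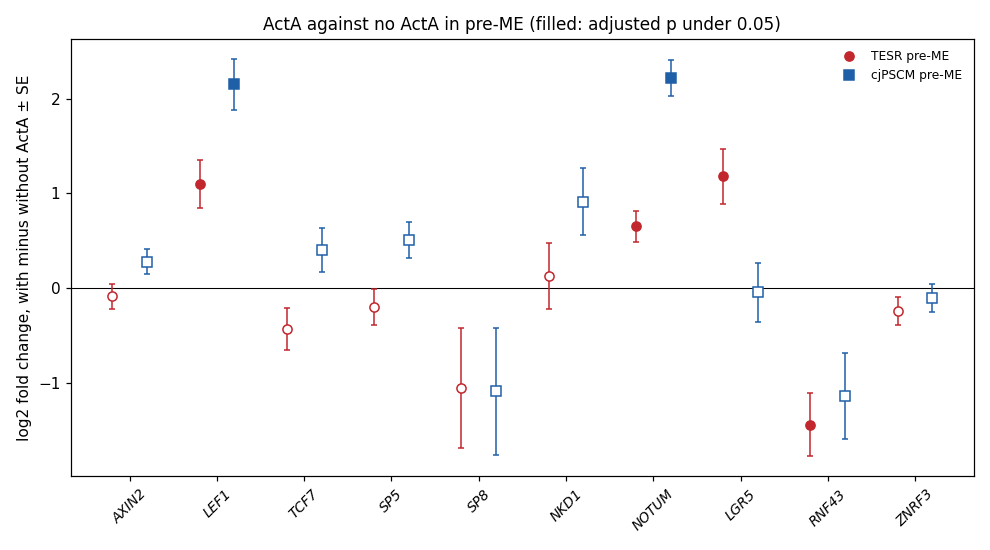
Log2 fold change with against without ActA, with its SE, for the 10 genes in pre-ME of TESR cultures (red circles) and of cjPSCM cultures (blue squares). Filled symbols passed the test at an adjusted p under 0.05. LEF1 and NOTUM lie above 0 in both media, at 1.10 and 0.65 in TESR and at 2.15 and 2.22 in cjPSCM cultures, and LGR5 lies at 1.18 in TESR and at -0.04 in cjPSCM cultures.

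On day 4, cjPGCLCs and soma were compared with the pre-ME of cjPSCM cultures they came from. SP5 and AXIN2 were lower in all 4 comparisons, whereas LEF1 was lower in none. Without ActA in pre-ME, 2 of the 10 genes were higher and 3 lower in cjPGCLCs, beside 21.5% and 18.5% of all genes, and 2 were higher and 6 lower in soma, beside 20.6% and 21.7%. With ActA, none were higher and 6 lower in cjPGCLCs, beside 25.3% and 23.0%, and 1 was higher and 7 lower in soma, beside 23.8% and 24.2%. SP5 went from 1763 and 1444 normalised counts in pre-ME without ActA to 81.3 and 59.9 in cjPGCLCs and 32.3 and 48.0 in soma. With ActA it went from 2743 and 1871 to 31.3 and 32.7 and 33.6 and 19.4. All sorted libraries of SP5 lay below all pre-ME libraries. The log2 fold changes in cjPGCLCs were -4.48 (SE 0.24, adjusted p = 9.86e-10) without and -6.17 (SE 0.27, adjusted p = 1.08e-10) with ActA. AXIN2 was at 753 and 627 in cjPGCLCs and 973 and 893 in soma without ActA, and at 745 and 732 and 887 and 929 with ActA. It fell by between 0.99 and 1.59 on the log2 scale in the 4 comparisons. In cjPGCLCs it then overlapped the 672 and 808 of cjiPSCs in cjPSCM, the medium these cells came from, while both soma conditions lay above them.

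LEF1 was highest in soma, with 4656 and 4686 normalised counts without and 4804 and 5505 with ActA. It rose from pre-ME to soma by 3.39 (SE 0.28, adjusted p = 1.2e-07) without and 1.39 (SE 0.26, adjusted p = 0.000359) with ActA on the log2 scale. In cjPGCLCs LEF1 had 1811 and 1790.3 without and 1964 and 2987 with ActA, and rose from pre-ME without ActA by 2.03 (SE 0.27, adjusted p = 2e-05). NOTUM rose from pre-ME without ActA in both sorted populations, from 105 and 92.1 to 859.7 and 797 in cjPGCLCs and 355 and 368 in soma. Its log2 fold change was 3.05 (SE 0.19, adjusted p = 4.98e-09) in cjPGCLCs and 1.84 (SE 0.19, adjusted p = 1.32e-06) in soma. With ActA the change of NOTUM was 0.22 (SE 0.17, adjusted p = 0.306) in cjPGCLCs and -0.59 (SE 0.18, adjusted p = 0.0116) in soma. LGR5 fell in 3 of the 4 comparisons, RNF43 in 3 and ZNRF3 in 3, and in cjPGCLCs without ActA the level of ZNRF3, 920.4 and 832, overlapped that of pre-ME, 864 and 674. Every fall of RNF43 was lost without at least 1 single library. In soma with ActA the fall of SP8 was lost without any 1 of the 4 libraries, and that of NKD1 without either soma library or without cjPSCM pre-ME with ActA replicate 1. The fall of NOTUM there was lost without cjPSCM pre-ME with ActA replicate 1 or soma replicate 2.

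**Figure D5:**
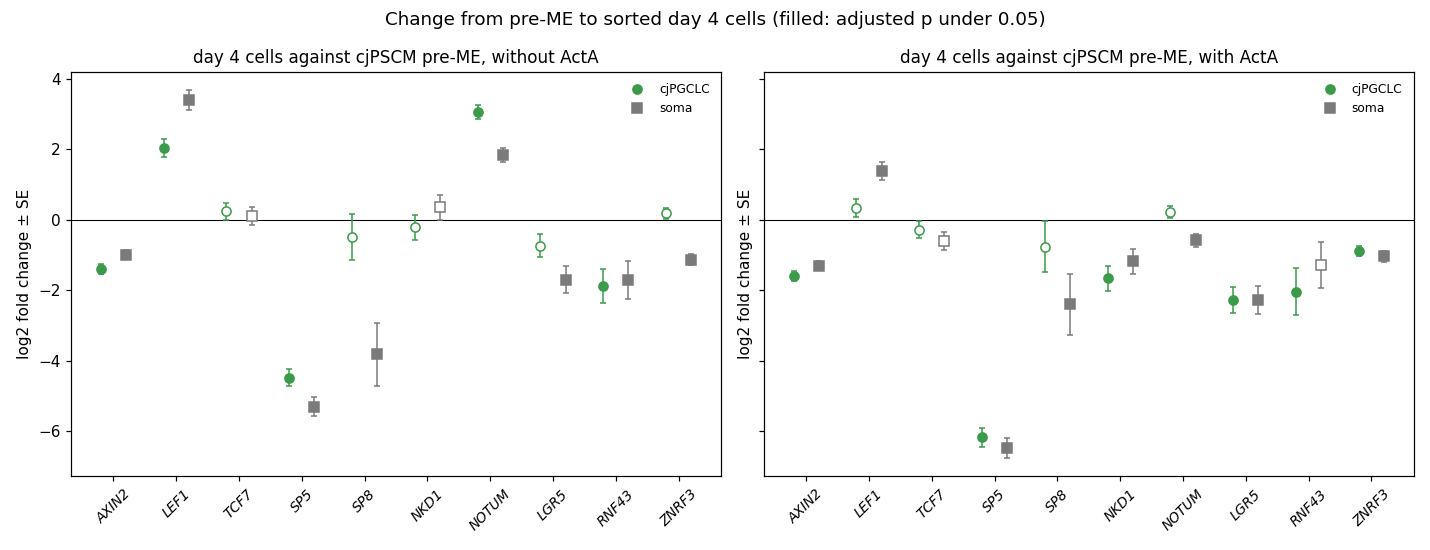
Log2 fold change of sorted day 4 cells against the pre-ME of cjPSCM cultures, with its SE, for the 10 genes without ActA (left) and with ActA (right), for cjPGCLCs (green circles) and soma (grey squares). Filled symbols passed the test at an adjusted p under 0.05. SP5 lies between -4.48 and -6.47, LEF1 lies at 2.03 and 3.39 without ActA, and NOTUM lies at 3.05 and 1.84 without ActA.

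Between the sorted populations, LEF1 was lower and NOTUM higher in cjPGCLCs than in soma, with and without ActA. The log2 fold change of LEF1 was -1.36 (SE 0.26, adjusted p = 0.00246) without and -1.05 (SE 0.26, adjusted p = 0.0235) with ActA, and that of NOTUM was 1.21 (SE 0.18, adjusted p = 0.000225) and 0.81 (SE 0.18, adjusted p = 0.0123). Without ActA, ZNRF3 and SP8 were higher in cjPGCLCs too, ZNRF3 by 1.31 (SE 0.16, adjusted p = 4.18e-05) and SP8 by 3.33 (SE 0.91, adjusted p = 0.0264) on the log2 scale. ZNRF3 was at 920.4 and 832 normalised counts in cjPGCLCs and 357 and 360.5 in soma, and SP8 at 437 and 186 and 23.1 and 38.7. With ActA their log2 fold changes were 0.15 and 1.64 and did not pass, and the difference between the ActA conditions was not tested. Of all genes, 6.67% were higher and 2.96% lower in cjPGCLCs without ActA, and 3.68% and 1.16% with ActA. Without ActA the calls of LEF1, NOTUM and ZNRF3 held with any 1 of the 4 libraries left out, while that of SP8 was lost without either soma library or without cjPGCLC replicate 1. With ActA the call of LEF1 was lost without either soma library or without cjPGCLC replicate 1, and that of NOTUM without any 1 of the 4 libraries. FOXA2, a marker of endoderm, moved with the same comparison. It had 356 to 518 normalised counts in cjPGCLCs without ActA and 83.9 to 192 with ActA, against 0 to 4.61 and 0 in soma, while the endoderm markers FOXA1 and CER1 did not exceed 16.7 and 2.31 in any of these libraries. The summed level of 6 markers of somatic mesoderm was 9960.4 to 13498 and 9775 to 10844 in cjPGCLCs and 15347 to 19298 and 13441 to 15670.1 in soma, in the same order. Not every marker went with this sum. PDGFRA overlapped in both ActA conditions, with means of 6683 and 4611 in cjPGCLCs against 7326 and 3892 in soma. HAND1 overlapped without and HAND2 with ActA, and FOXF1 did not exceed 3.54. COL1A1 and BMP4 were lower in cjPGCLCs without overlap in both ActA conditions. The part of FOXA2 and of these markers in the differences of LEF1, NOTUM, ZNRF3 and SP8 was not tested.

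Over all 10 conditions, 6 of the 10 genes had their highest mean in pre-ME of TESR cultures without ActA and 2, NKD1 and NOTUM, in pre-ME of TESR cultures with ActA. LGR5 was highest in cjiPSCs in TESR medium and LEF1 in soma with ActA. These conditions, and the overlaps and pairs below, were not counted over all genes, so the counts describe the 10 genes only. Neighbours in these orders often overlapped. In 2 to 7 of the 9 neighbouring pairs of a gene the libraries were not separate, with NOTUM having the fewest overlaps and SP8 the most. In AXIN2 the 4 pre-ME conditions came first, without overlap between neighbours, followed by soma, which overlapped between the ActA conditions, and then by cjiPSCs in cjPSCM and both kinds of cjPGCLCs, which overlapped with each other. Cells of TESR cjiPSC cultures came last. Among the 45 pairs of these genes, the Pearson correlation over the 10 condition means, on log2 of the normalised count + 1, had a median of 0.674 and was over 0.7 in 22 pairs. It was highest for TCF7 with NKD1, at 0.970, and lowest at -0.216. With AXIN2 it was 0.749 for SP5, 0.728 for ZNRF3 and 0.703 for NKD1, but 0.423 for LEF1 and 0.130 for LGR5. Among the 13252 genes compared with AXIN2, these 5 had ranks 419, 500, 577, 2073 and 4827, so many other genes were closer to it. The genes with the pattern most like AXIN2 among 13252 genes with a symbol other than a LOC name were DGCR8 with a correlation of 0.993, PLA2G4B with 0.982, PIDD1 and RNF225 with 0.981 each, and ZGLP1 with 0.979. The 10 points share libraries and normalisation between genes, and these values are a description.

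Lists of related genes were read beside the 10. As a background, TESR medium without ActA had 17.4% of all genes higher and 19.2% lower. For cjPSCM without ActA these shares were 17.9% and 20.1%. With ActA they were 17.3% and 17.1% for TESR medium, but 7.42% and 10.3% for cjPSCM. Of 10 close relatives that were tested, such as AXIN1, LGR4 and TCF7L2, 1 rose and 1 fell without ActA in TESR medium and 1 rose and 3 fell in cjPSCM, and LGR6 was too low to test. TCF7L1, a TCF that is known to act mainly as a repressor, fell in both media, with log2 fold changes of -1.24 (adjusted p = 0.000208) in TESR medium and -0.81 (adjusted p = 0.00506) in cjPSCM. SP9, a relative of SP5 and SP8, fell in cjPSCM by 1.24 on the log2 scale and its change in TESR medium was 1.00 (adjusted p = 0.0721). The difference of 2.24 between the media had an adjusted p of 0.0151. Of 22 other known WNT targets that were tested, 12 rose and 4 fell in TESR medium, and 7 rose and 2 fell in cjPSCM, without ActA. The falls, named here after their values were seen, were MYC (-2.60), SOX9 (-1.67), FZD7 (-0.77) and KREMEN1 (-0.66) in TESR medium. In cjPSCM they were CD44 (-3.02) and SOX9 (-1.64). With ActA 14 rose and 3 fell in TESR medium, while 10 rose and 1 fell in cjPSCM. DKK4 and FGF20 were too low to test. CDX1, a homeobox factor of the posterior body, rose by 5.67 in TESR medium and 5.90 in cjPSCM without ActA, from 17.3 to 899 and from 2.63 to 173 normalised counts. By its mean in cjiPSCs in cjPSCM, CDX1 lay below what 3 reads stand for in these libraries, 2.83 and 4.45. Its relative CDX2 rose by 2.85 and 5.41, the homeobox gene MSX1 by 5.34 and 4.65, and GAD1, which encodes a glutamate decarboxylase, by 6.76 and 4.35 in the same order. CDX2 went from 36.8 to 274 normalised counts in TESR medium. In cjPSCM it went from 0.741, less than 3 reads stand for, to 28.7. GAD1 started from 4.92 in cjPSCM. The difference between the media did not pass for CDX1, CDX2, MSX1 or GAD1, with adjusted p-values of 0.867, 0.192, 0.473 and 0.204 (edgeR).

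Of 23 genes of the core of the pathway, 3 rose and 4 fell in TESR medium without ActA. All genes gave 17.4% and 19.2% there. Of these 23, 4 rose and 6 fell in cjPSCM without ActA, against shares of 17.9% and 20.1% over all genes. With ActA, 4 rose and 3 fell in TESR medium, where all genes gave 17.3% and 17.1%. In cjPSCM with ActA, 3 rose and 1 fell, against 7.42% and 10.3% of all genes. CSNK1E had no row in the table. The WNT co-receptor LRP5 fell in both media, with -1.20 (adjusted p = 0.000174) in TESR medium and -1.74 (adjusted p = 8.38e-06) in cjPSCM. BCL9L, a co-activator of beta-catenin, fell as well, with -0.65 (adjusted p = 0.0292) and -0.99 (adjusted p = 0.00266), while PYGO1, which acts together with BCL9 proteins, rose with 1.16 (adjusted p = 0.000743) and 2.30 (adjusted p = 1.21e-05). TLE1, a co-repressor that binds TCF factors, fell with -2.45 (adjusted p = 1.01e-07) and -1.35 (adjusted p = 3.73e-05). The largest difference between the media on this list was that of its relative TLE3, named here after its values were seen, which rose by 2.61 in TESR medium and changed by 0.30 (adjusted p = 0.0911) in cjPSCM, a difference of 2.31 with an adjusted p of 5.69e-06. CTNNB1, the gene of beta-catenin, also named after its values were seen, passed in neither medium, with log2 fold changes of -0.21 (adjusted p = 0.223) and -0.01 (adjusted p = 0.939).

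By RefSeq's gene positions on calJac240_pri, an assembly other than that of the counts, 4 of the 10 genes overlap other genes that were counted, and the strand setting of the counting is not given in the sources used here. AXIN2 overlaps CEP112, which had 84.5 to 218 normalised counts over all 20 libraries. ZNRF3 overlaps LOC100406658, which had 122 to 289. Of the 2 counted genes that overlap LEF1, LOC100398916 had 23.9 to 106 and LOC118152227 had 0 to 52.2, with its highest values in soma, where LEF1 was highest too. The 3 that overlap LGR5 did not exceed 19.5 in any library.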

How the data were processed

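Poly(A) RNA of 20 libraries was sequenced, with 10 conditions and 2 biological replicates in each, taken from the sample labels. Per the labels and the paper, the authors checked reads with FastQC 0.11.8, mapped them with STAR 2.7.0a to calJac4 and counted them with HTSeq 0.11. Raw counts per gene are as deposited. The authors also deposited a normalised signal, and dividing the raw counts by it gave 1 constant per library, its DESeq2 size factor. The annotation release and the strand setting are not given in the sources used here, so overlapping or antisense genes can share or lose reads. The 2 summary lines of HTSeq were left out, and reads outside genes were 10.6% to 23.2% of counted reads. Depth lay between 4784964 and 22067099 reads on genes.

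The test was edgeR's quasi-likelihood F-test on raw counts (edgeR 4.0.16, R 4.3.3), with TMM scaling, edgeR's filter by condition, 1 coefficient per condition over all 20 libraries and 10 residual degrees of freedom. Benjamini-Hochberg adjustment covered 15797 genes in each of 18 comparisons, 3 of them interactions, and a gene was called at an adjusted p under 0.05. The libraries are cultures of 1 line, and all 10 conditions share 1 estimate of the spread per gene. P-values therefore measure the spread between cultures of this line pooled over conditions, and not that of the compared conditions alone. The cjiPSC replicates in cjPSCM differed more than this pool, with an SD of 0.959 over genes. The fits were first run on simulated counts with the same spread in every gene and condition. The spread of these data differs between conditions, so that run checked the code and not the p-values. Replicates of a condition differed by more than sampling noise, with a chi-square per degree of freedom of 3.08 to 39.6. Genes of the lists other than the 10 were named by size of change, up to 4 per list, among those called in both CHIR responses without ActA or in their difference, with replicates that did not overlap. The members and lists were chosen with earlier results of these data known. Alternatives were DESeq2 1.42.0, edgeR fitted to just the libraries compared, DESeq2 size factors in edgeR, no filter, a filter at a mean of 1 CPM, the replicate block, an added log2 fold change over 2 and each library left out in turn. The crossed block was added after seeing the data. Where alternatives are counted for a single gene, the added fold threshold is left out, so a call with a log2 value under 2 is lost there as well. Levels were tabulated and plotted in Python 3.11.15 (pandas 2.3.3, matplotlib 3.10.9). No sequences were read, since none were at hand. The level of 1 marker gene of the sorted cells is not reported here.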

Additional observations from a re-analysis of the deposited data

Results flagged for a closer look

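The change from cjiPSCs to pre-ME differed between the media for 3 of the 10 genes, by a test of the difference itself (edgeR, adjusted p under 0.05, response in TESR medium minus that in cjPSCM, log2 scale). For AXIN2 the difference was 2.45 without and 2.09 with ActA. For NOTUM it was 3.40 without and 1.83 with ActA. LGR5 differed in the other direction, with -5.03 without and -3.81 with ActA. The effect of ActA on pre-ME differed between the media for NOTUM, with -1.57 as the effect in TESR minus that in cjPSCM cultures. The differences with and without ActA rest on the same cjiPSC libraries. No group had 4 libraries, so single libraries were not tested as outliers.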

How the results depend on the processing

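Of 1143 values of called genes under the alternatives, 1021 kept their call and direction, 122 lost the call, 47 of them under the added fold threshold, and none changed sign. The following counts of the 10 genes moved by more than 1.5 times, and apart from the fewer samples, the fewer calls of a second threshold or the wider set of genes, the cause was not tested. Without a filter on low counts, 6 passed in the CHIR response by medium with ActA, 6 in the ActA effect in cjPSCM cultures, 4 in the ActA effect by medium and 7 in cjPGCLCs against soma without ActA. Over all genes, 1744, 3771, 735 and 1997 passed in the same order, against 979, 3306, 63 and 1522 with the filter. With the libraries of a comparison only, 7 passed in the ActA effect in TESR cultures, 6 in that in cjPSCM cultures, 4 in the ActA effect by medium, 3 between the media in cjiPSCs and 9 between the media in pre-ME with ActA. Over all genes, 4296, 4808, 2513, 1794 and 7780 passed in the same order, against 1396, 3306, 63, 5716 and 4328 with all 20 libraries. With a log2 fold change over 2 as well, 0 passed in the ActA effect in TESR cultures, 0 in the ActA effect by medium, 1 between the media in cjiPSCs, 2 in pre-ME without and 1 with ActA, 1 in cjPGCLCs against soma without and 0 with ActA, and 3 in each comparison of day 4 cells with pre-ME. Over all genes, 316, 18, 1450, 617, 651, 449 and 249 passed in the same order, and 1245 to 1321 in the comparisons with pre-ME.

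With 1 library left out, the CHIR response gave 8 to 9 of the 10 genes without and 8 with ActA in TESR medium, and 9 to 10 and 8 to 10 in cjPSCM. The CHIR response by medium gave 3 to 5 without and 2 to 5 with ActA. The ActA effect gave 0 to 2 in TESR and 2 to 3 in cjPSCM cultures, and 0 to 1 by medium. The media gave 4 to 8 in cjiPSCs, 5 to 8 in pre-ME without and 3 to 4 with ActA. The sorted cells gave 3 to 4 without and 0 to 1 with ActA against each other, 4 to 5 and 5 to 7 for cjPGCLCs and 7 to 8 and 5 to 7 for soma against pre-ME. A lone library was assumed to vary like the other groups. The number of all genes called moved with the left-out library too, so these counts describe the 10 genes only.

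Over all genes, the CHIR response in cjPSCM moved from 5996 genes to 979 without ActA and from 2802 to 178 with ActA when only the 4 libraries compared were fitted, while the ActA effect by medium moved from 63 to 2513. With any 1 library left out, the response in cjPSCM gave 3793 to 7914 genes without and 1005 to 6084 with ActA. The added threshold left 18 to 1450 genes per comparison.

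With the replicate block the counts of the 10 genes differed from those without it by at most 1, with 5 between the media in cjiPSCs and 6 in cjPGCLCs against pre-ME without ActA. Over all genes, 5609 and 6252 passed with the block in these comparisons, against 5716 and 6321 without it. Same-numbered libraries had correlations of deviations between -0.193 and 0.227 over genes, so the labels' numbers were not taken as pairs. A crossed block, added after seeing the data, gave 10 and 9 genes for the CHIR response in cjPSCM without and with ActA and 8 for soma against pre-ME without ActA. Of the 5 genes most like AXIN2, 4 were kept with TMM-normalised CPM, 4 with a pseudocount of 10 and 1 with Spearman's correlation. RNF43, at 5 reads in the cjiPSCs in cjPSCM, is limited most by depth.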
